A study of Homo sapiens with 3 samples.

Results

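The 10 genes described here encode intermediate filament proteins of 3 kinds of cell: the epithelial keratins KRT8, KRT10, KRT18 and KRT19, the mesenchymal protein vimentin (VIM) with nestin (NES), and the neuronal proteins NEFL, NEFM, NEFH and INA. They were taken by symbol from a table of read counts for 57268 gene identifiers, and each of the 10 matched 1 row. The libraries came from HEK293T cells, a line derived from human embryonic kidney (sample titles shorten the name to HEK293). Each of 3 groups gave 1 library: a control of wild-type cells with nothing overexpressed, a library from cells in which ADAR2 alone was overexpressed (the ADAR2 library), and one from cells in which SRSF9 was overexpressed beside it (the ADAR2+SRSF9 library). Values below follow this order unless said otherwise. ADAR2, encoded by ADARB1, converts adenosine to inosine in double-stranded RNA, and SRSF9 is a splicing factor of the serine/arginine-rich family. The labels name no vector, no mock transfection and no time after transfection, so effects of either protein cannot be told apart from those of overexpression itself. The design text puts the interest of the series in how SRSF9 acts on editing by ADAR2. The counts describe transcript levels, and editing is not analysed here.

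Intermediate filaments are ropes of coiled-coil proteins that give a cell mechanical strength. Keratins pair a type I protein (KRT10, KRT18, KRT19) with a type II protein (KRT8), whereas vimentin, a type III protein, can assemble with itself. Nestin and the neurofilament proteins are of type IV: NEFL is the light chain on which axonal neurofilaments are built, NEFM and NEFH are the medium and heavy chains with long tails, and INA (alpha-internexin) is a further neuronal subunit. HEK293 cells are known for expressing neurofilament proteins together with vimentin and simple epithelial keratins.

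All 3 kinds of filament RNA were found in the libraries. Together the 10 genes held 117141, 104316 and 70136 reads, out of library totals of 152878282, 132887974 and 97875935. Levels are given as CPM, counts per 1000000 reads after the library size was scaled by TMM, a method that evens out composition. On this scale the sum over the 10 genes was 758, 777 and 732 CPM. Ratios between libraries were taken for genes that averaged 1 CPM or more, here called tested genes. There were 16072 of them, 9 of the 10 filament genes included. KRT19 was the nearest inside, at a mean of 1.03 CPM that passed 1 only through the ADAR2 library, and NEFH the nearest outside, at 0.790 CPM. The overexpressed genes followed the labels, with ADARB1 at 113.6, 16100.0 and 13647 CPM and SRSF9 at 372, 369 and 18288 CPM. The ADAR2+SRSF9 library also held the globin genes HBB and HBD at 383 and 946 CPM, against at most 3.69 CPM in the others. These 2 genes make up nearly all of the 1341 CPM summed there over 10 blood markers, against 15.4 and 17.8 CPM in the control and ADAR2 libraries. The alpha-globin genes HBA1, at 5.06, 6.54 and 6.28 CPM, and HBA2, at 4.55, 5.67 and 5.38 CPM, did not share that excess, and the white-cell marker PTPRC had 6, 5 and 0 reads. The part of this in the filament values was not tested.

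**Figure D1:**
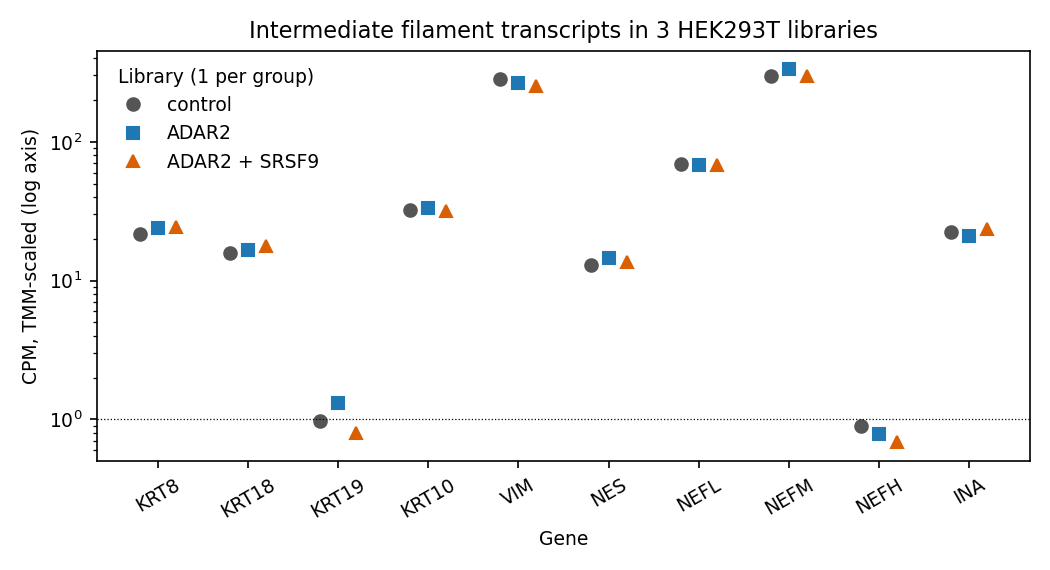
Level of each gene (x axis) in CPM on a log axis (y axis), with 1 point per library and a dotted line at a CPM of 1. NEFM and VIM lie between 253 and 332 CPM, and KRT19 and NEFH near 1 CPM.

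Of the neuronal subunits, NEFM had 46242, 44574 and 28544 reads, which are 299, 332 and 298 CPM. The ADAR2 library was thus the highest, and the other two lay within 2 CPM of each other. NEFL had 10597, 9164 and 6563 reads, or 68.6, 68.3 and 68.5 CPM, the narrowest spread of the 9 genes tested (1.005-fold from lowest to highest). INA stood at 22.2, 21.1 and 23.5 CPM from 3434, 2831 and 2249 reads, highest in the ADAR2+SRSF9 library. NEFH, the heavy chain, had 138, 106 and 66 reads or 0.893, 0.790 and 0.688 CPM, and was lowest in the ADAR2+SRSF9 library. NEFH was still above the limit set by 3 reads, which is 0.0194, 0.0223 and 0.0313 CPM.

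Vimentin, the filament of mesenchymal cells, had 43821, 35561 and 24272 reads. These are 284, 265 and 253 CPM, highest in the control and lowest in the ADAR2+SRSF9 library. Nestin, a filament protein of neural and muscle progenitors, had 2015, 1957 and 1314 reads or 13.0, 14.6 and 13.7 CPM. NES was highest in the ADAR2 library, the opposite order to VIM for the control and ADAR2 libraries.

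Among the keratins, KRT10, known as the type I keratin of differentiated epidermis, stood at 32.0, 33.5 and 31.6 CPM from 4945, 4501 and 3026 reads, highest in the ADAR2 library. KRT8 had 3338, 3224 and 2338 reads, or 21.6, 24.0 and 24.4 CPM, lowest in the control. KRT18, its usual partner, had 2460, 2221 and 1688 reads, or 15.9, 16.5 and 17.6 CPM, again lowest in the control. KRT19, a small type I keratin of simple epithelia that lacks most of the tail domain, had only 151, 177 and 76 reads. This corresponds to 0.977, 1.32 and 0.793 CPM, highest in the ADAR2 library and lowest in the ADAR2+SRSF9 library.

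Levels of different genes were compared per length, as CPM per kilobase of the union of each gene's exons in GENCODE 29. In the control the order was NEFM (68.3 CPM per kb), VIM (54.99), NEFL (15.8), KRT10 (14.9), INA (6.88), KRT18 (4.95), KRT8 (3.14), NES (2.35), KRT19 (0.418) and NEFH (0.236). This order was the same in all 3 libraries, and the ranges of neighbouring genes over the 3 libraries did not overlap. The closest neighbours were NEFL, at 15.8 CPM per kb in each library, and KRT10, at 14.7 to 15.6. Among the 15733 tested genes with a length, NEFM ranked 573, 506 and 584 from the top and VIM 747, 801 and 838. KRT8 ranked 9566 and KRT19 14845 in the control.

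Part of this order depended on the length used. VIM has exons of 5158 bases in their union but a longest transcript of 2666 bases, and KRT8 has 6881 against 2862 bases. Per kilobase of the longest transcript VIM was above NEFM, at 106, 99.4 and 94.97 against 74.5, 82.6 and 74.1 CPM per kb. KRT8 then stood at 7.55, 8.39 and 8.52 and KRT18 at 7.63, 7.92 and 8.43 CPM per kb, ranges that overlapped. INA, at 6.53 to 7.26, was then below both. NEFL and KRT10 kept their order and were at 16.7 to 16.8 and at 14.9 to 15.8 CPM per kb.

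**Figure D2:**
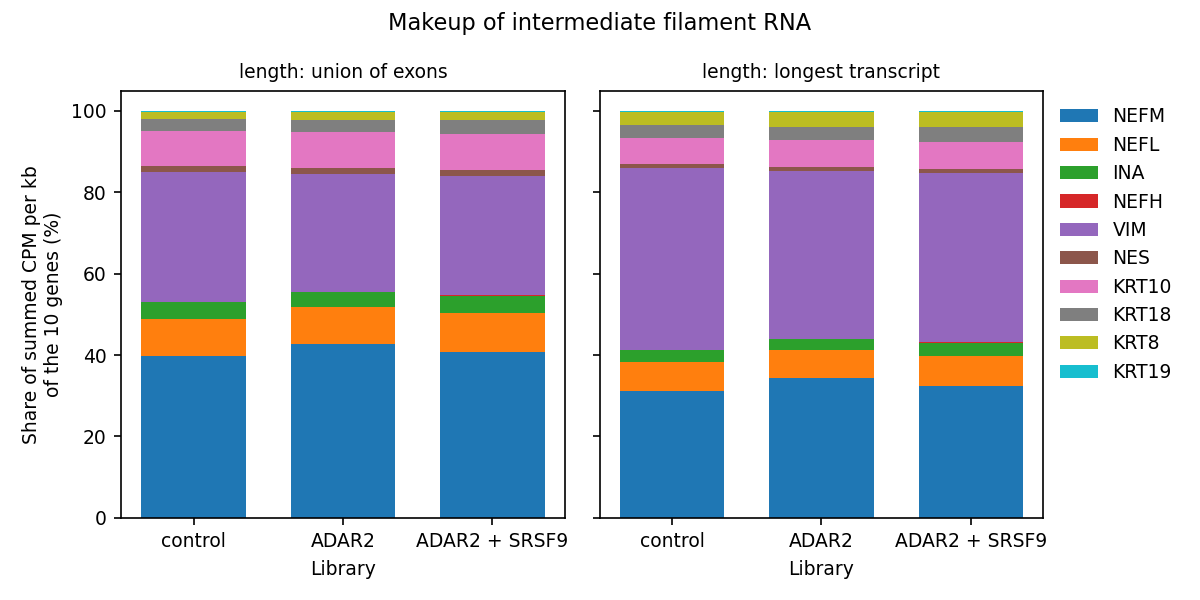
Share of the summed CPM per kilobase of the 10 genes (y axis, percent) taken by each gene in each library (x axis), for 2 definitions of gene length. The neuronal genes take 53.1% to 55.5% with the union of exons and 41.3% to 44.0% with the longest transcript.

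The makeup of the filament RNA was close to the same in the 3 libraries. Per kilobase of exon union, NEFL, NEFM, NEFH and INA together made up 53.1%, 55.5% and 54.7% of the 10 genes. VIM made up 31.96%, 28.997% and 29.4%. KRT8, KRT18 and KRT19 made up 4.94%, 5.19% and 5.61%, and KRT10 8.68%, 8.83% and 8.82%. With the longest transcript as length, VIM made up 44.7%, 41.2% and 41.6% and the neuronal genes 41.3%, 43.99% and 43.1%. The choice of length moved these shares by more than the libraries differed.

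Ratios of reads between partners within a library do not depend on how libraries are scaled. KRT8 had 1.36 reads per read of KRT18 in the control (95% counting interval 1.29 to 1.43), 1.45 (1.37 to 1.53) in the ADAR2 library and 1.39 (1.30 to 1.48) in the ADAR2+SRSF9 library. These 3 intervals overlapped. The read ratios are not divided by gene length and leave out the pseudogene rows described below. Per kilobase of exon union, KRT8 was at 0.635, 0.679 and 0.648 times KRT18. Per kilobase of the longest transcript, KRT8 was at 0.990, 1.06 and 1.01 times KRT18. All intervals here are exact Clopper-Pearson intervals that cover counting error only. NEFM had 4.36 reads per read of NEFL (4.27 to 4.46) in the control, 4.86 (4.76 to 4.98) in the ADAR2 library and 4.35 (4.23 to 4.47) in the ADAR2+SRSF9 library. The ADAR2 library lay apart from the other two beyond counting error. NEFM had 1.06 reads per read of VIM (1.04 to 1.07) in the control, 1.253 (1.24 to 1.27) in the ADAR2 library and 1.18 (1.16 to 1.20) in the ADAR2+SRSF9 library, and no 2 of these intervals overlapped. These ratios are not corrected for GC content, which is 54.0% for NEFM, 48.2% for NEFL and 46.9% for VIM. With the GC trend described below subtracted, log2 ratios of ADAR2 to control were 0.08 for NEFM, 0.02 for NEFL and -0.04 for VIM. In ADAR2+SRSF9 against control they were -0.10, 0.02 and -0.11. No group has a second library against which to read such differences, so no p-value is given.

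The first comparison asked what accompanied ADAR2 overexpression. Genes were counted as apart by 1.5-fold where the ratio reached that size, up or down, with a counting interval that left out 1. By this rule 0 of the 9 tested genes were apart, against 1.26% of all genes tested. Their median log2 ratio was 0.07, and that of all genes tested was 0.00. KRT19 had the highest ratio, 1.35 (1.08 to 1.69), or 1.20 (0.966 to 1.49) when its pseudogene rows, described below, were included. VIM had the lowest ratio, 0.934 (0.921 to 0.947). The counting interval alone excluded 1 for 7 of the 9, against 63.9% of all genes tested, which is near the background. Of the 7, 5 were higher, against 31.5% of all, and 2 lower, against 32.4%. The 5 higher were KRT19, NES (1.12), KRT8 (1.11), NEFM (1.11) and KRT10 (1.05), and the 2 lower VIM and INA (0.949). Counted with its pseudogene rows, KRT8 was at 0.980 (0.943 to 1.02), an interval that includes 1. KRT19 was tested only through its level in the ADAR2 library, which favours a higher ratio here. Its place in this count is therefore not read as a result. For KRT18 (1.04, 0.981 to 1.10) and NEFL (0.995, 0.968 to 1.02) no difference was detectable at this depth. For NEFH the ratio was 0.884 with an interval of 0.680 to 1.15.

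The second comparison set ADAR2+SRSF9 against ADAR2 alone. By label these libraries differ by SRSF9, and they also differ in the HBB, HBD and ADARB1 levels given above. Here 1 of the 9 tested genes, KRT19, was apart by 1.5-fold, against 3.39% of all genes tested in either direction and 2.52% lower. KRT19 was tested only through its level in the ADAR2 library, since it lay below 1 CPM in the other two, so nothing is read from this count. KRT19 was at 0.603 times its ADAR2 level (0.453 to 0.791), a log2 ratio of -0.73. The interval reaches beyond 1.5-fold on one side and short of it on the other. Of all genes tested 1.12% had a log2 ratio as low or lower. Among the 1803 genes with a mean CPM of 1 to 2, where KRT19 lies, 8.82% were lower by the same rule. The median log2 ratio of the 9 genes was -0.07, against 0.01 for all genes tested. The counting interval excluded 1 for 5 of the 9, against 50.5% of all genes tested. INA was the 1 higher gene (1.11, 1.05 to 1.18), against 27.5% of all. The 4 lower, against 23% of all, were KRT19, NEFM (0.897, 0.884 to 0.910), KRT10 (0.942, 0.899 to 0.986) and VIM (0.956, 0.940 to 0.972). The filter favours a lower ratio of KRT19 here, so its place in this count is not read as a result either. NEFL was at 1.00298 (0.972 to 1.04), KRT8 at 1.02 and KRT18 at 1.06, and NEFH at 0.873 with an interval of 0.631 to 1.20.

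The third comparison set ADAR2+SRSF9 against the control. Again 0 of the 9 genes were apart by 1.5-fold, against 3.99% of all genes tested, and the median log2 ratio was 0.00, against -0.01 for all. KRT8 was the highest at 1.13 (1.07 to 1.19), followed by KRT18 at 1.11 (1.04 to 1.18) and INA at 1.06 (1.0003 to 1.11). VIM was at 0.893 (0.879 to 0.907). These 4 were the genes whose interval excluded 1, against 68.8% of all genes tested. The 3 higher compare with 33.4% of all and the 1 lower with 35.3%. Counted with their pseudogene rows, described below, KRT8 was at 1.04 (0.997 to 1.08) and KRT18 at 1.01 (0.959 to 1.07). Both of those intervals include 1. KRT19 was at 0.812 with an interval of 0.607 to 1.08, so the ADAR2+SRSF9 level was not distinguishable from the control at this depth. NEFM was at 0.995 (0.980 to 1.01) and NEFL at 0.998 (0.968 to 1.03). The 3 comparisons share libraries. A high value in the ADAR2 library alone enters the first comparison as higher and the second as lower, which is the order seen for KRT19, NEFM, NES and KRT10.

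**Figure D3:**
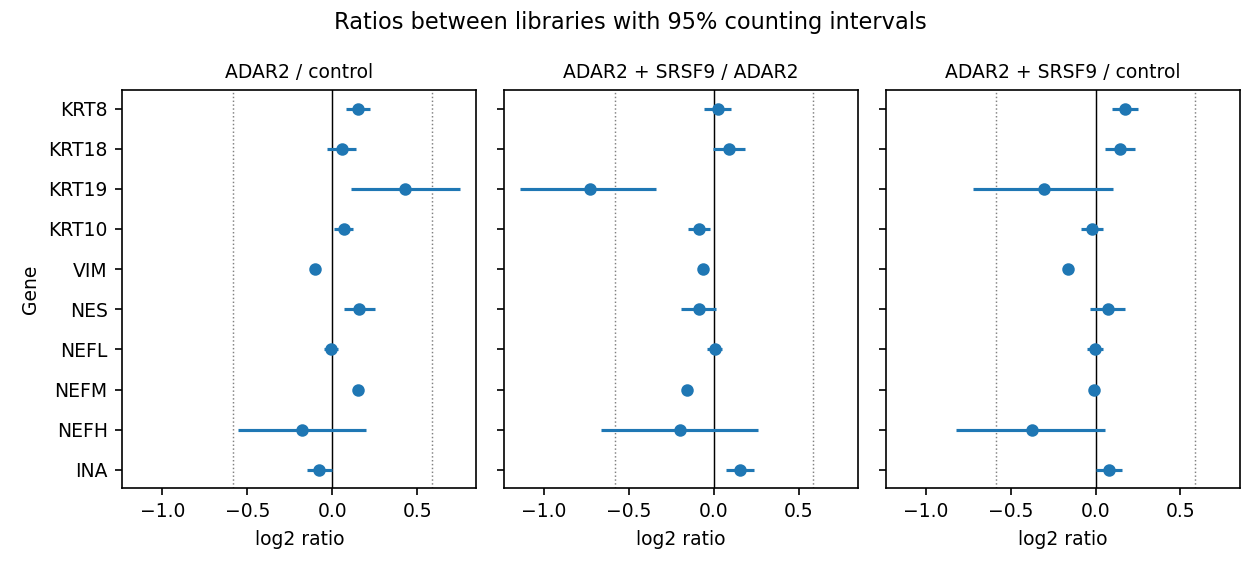
Log2 ratio (x axis) of each gene (y axis) in the 3 comparisons, with bars for the 95% counting interval and dotted lines at 1.5-fold. KRT19 alone passes a dotted line, at -0.73 in the middle panel, and the widest bars are those of KRT19 and NEFH.

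Ratios against the control moved with the GC content of the transcript across all genes. The rank correlation (Spearman's rho) over 10270 genes that averaged 10 CPM or more was 0.76 in the first comparison, 0.19 in the second and 0.70 in the third. These values are across genes, which are not independent replicates. The 10 genes ran from 46.9% GC (VIM) to 61.8% (KRT19). At their GC content the trend of all genes in ADAR2 against control was -0.06 for VIM and 0.17 for KRT19. With that trend subtracted, the log2 ratios of ADAR2 against control were 0.26 for KRT19, 0.08 for NEFM, 0.06 for KRT8, 0.02 for NES and -0.04 for VIM. In ADAR2+SRSF9 against ADAR2 KRT19 was then at -0.79 and NEFM at -0.17. In ADAR2+SRSF9 against control KRT8 was at 0.06, KRT18 at 0.03, VIM at -0.11 and KRT19 at -0.52.

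KRT8 and KRT18 have many processed pseudogenes, copies of the messenger RNA set back into the genome, and reads of a gene and its copies can be divided between their rows. The table held 50 rows with a KRT8 pseudogene symbol and 68 with a KRT18 pseudogene symbol. The window below, from the GENCODE 29 transcripts, shows for KRT8 how alike they are. It is the first stretch of 30 coding bases with the fewest differences among those where each of the 3 copies with the most reads differs from the gene. Capitals mark bases that differ from KRT8. The window runs from coding base 199 to 228, counted from 1 at the start codon.
KRT8: acggtcaaccagagcctgctgagccccctt
KRT8P12: acggtAaaccagagcctgctgagccccctt
KRT8P36: acTgtcaaccagagcctgctgagccccctt
KRT8P33: acAgtcaaccagagcctgctgagccccctt
Over the aligned coding sequence, KRT8P12 was 90.7% identical to KRT8, KRT8P36 93.5% and KRT8P33 95.8%. KRT18P17 was 93.9% identical to KRT18, KRT18P5 91.7% and KRT18P15 92.9%. Of the windows of 50 bases in the KRT8 coding sequence 48.3% occurred without a difference in at least 1 copy, and of those of 100 bases 8.87%. For KRT18 these shares were 38.7% and 0%.

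The copies held a large part of the reads. KRT8 pseudogene rows had 2185, 1481 and 1226 reads, which is 39.6%, 31.5% and 34.4% of the reads of the gene and its copies together. KRT18 pseudogene rows had 987, 613 and 478 reads, or 28.6%, 21.6% and 22.1%. Both shares were highest in the control. The row with the most reads was KRT8P12, a transcribed pseudogene, with 848, 702 and 581 reads. KRT8P36 had 465, 125 and 100 reads, KRT8P33 173, 144 and 165, and KRT18P17 315, 125 and 57. KRT8P36 and KRT18P17 were thus far higher in the control than in the other two libraries.

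Counted with its copies, KRT8 stood at 35.7, 35.0 and 37.2 CPM, and its ratio of ADAR2 to control was 0.980 (0.943 to 1.02) in place of 1.11. KRT18 stood at 22.3, 21.1 and 22.6 CPM, and its ratio was 0.946 (0.900 to 0.995) in place of 1.04. Both ratios thus lay below 1 with the copies and above 1 without them, but the interval of KRT8 with the copies and that of the KRT18 row alone include 1. In ADAR2+SRSF9 against control the ratios with the copies were 1.04 (0.997 to 1.08) for KRT8 and 1.01 (0.959 to 1.07) for KRT18, both with intervals that include 1. The summed KRT8 copies were at 0.780 (0.730 to 0.834) in ADAR2 against control, and at 0.907 (0.844 to 0.975) when KRT8P36 was left out. The summed KRT18 copies were at 0.715 (0.645 to 0.791), and at 0.836 (0.742 to 0.940) without KRT18P17. These 2 rows were chosen after their values were seen. The 5 KRT19 pseudogene rows had 20, 1 and 5 reads in sum, and VIMP1 had 0. Counted with its copies, a choice made after the values were seen, KRT19 stood at 1.11, 1.33 and 0.845 CPM. Its ratio of ADAR2 to control then had an interval that includes 1 (1.20, 0.966 to 1.49), and its ratio of ADAR2+SRSF9 to ADAR2 was 0.638 (0.484 to 0.833).

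**Figure D4:**
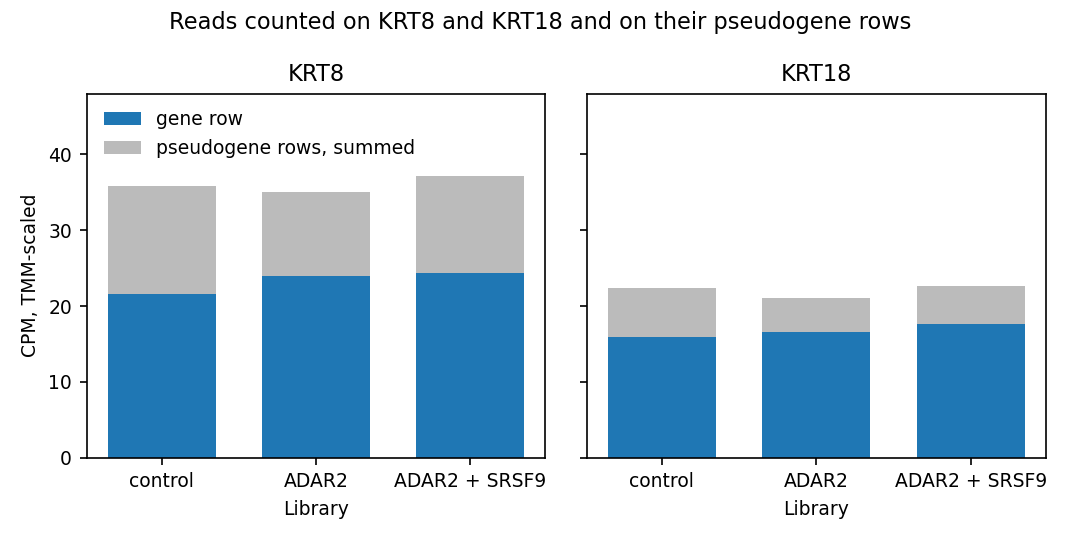
CPM (y axis) counted on the KRT8 and KRT18 rows and on their pseudogene rows, stacked, in each library (x axis). The gene rows are lowest in the control, and the pseudogene rows are highest there, so the stacks differ less than the gene rows.

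Other rows overlap the exons of the filament genes on the opposite strand, and the strand setting of the counting is not given in the sources used here. In GENCODE 29 the exons of KRT8 and KRT18, which lie on opposite strands of chromosome 12, share 525 bases. The antisense gene VIM-AS1 overlaps 641 exonic bases of VIM and had 324, 304 and 199 reads. An antisense row (GS1-72M22.1) overlaps 1706 exonic bases of NEFM and had 209, 190 and 99 reads. TMEM99 overlaps 56 bases of KRT10 and had 2655, 2141 and 1578 reads. The antisense rows of VIM and NEFM thus had under 1% of the reads of those genes.

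The rest of the intermediate filament family was led, per length, by the nuclear lamins, which line the inner nuclear membrane. LMNB2 stood at 302, 344 and 333 CPM, LMNB1 at 195, 190.2 and 187 CPM and LMNA at 62.3, 63.4 and 62.2 CPM. Of the 9 further non-keratin filament genes 7 were tested, and 0 were apart by 1.5-fold in each comparison. Over all genes tested the shares apart were 1.26%, 3.39% and 3.99%, so 0 is near the background. The 7 genes had median log2 ratios of 0.10 for ADAR2 against control, -0.03 for ADAR2+SRSF9 against ADAR2 and 0.00 for ADAR2+SRSF9 against control. The medians of all genes tested were 0.00, 0.01 and -0.01. GFAP, the filament of astrocytes, was at 1.99, 2.30 and 1.95 CPM, and PRPH (peripherin), of peripheral neurons, at 1.63, 1.88 and 1.55 CPM. DES (desmin), of muscle, had 63, 48 and 38 reads, and BFSP2, of the lens, had 0 in each library. A further 62 rows carried another keratin symbol, 10 of them pseudogenes by name. Together they reached 9.02, 10.1 and 9.68 CPM, and 3 of the 62 met the filter. KRT13, a keratin of stratified epithelia, stood at 1.37, 1.89 and 1.82 CPM, and 19 of the 62 had 0 reads in all 3 libraries. KRT7, a type II keratin of simple epithelia, reached at most 0.052 CPM.

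Genes of proteins that tie filaments to junctions and to other parts of the cytoskeleton were expressed. DSP (desmoplakin), which anchors keratins at desmosomes, stood at 225, 208 and 208 CPM. JUP (plakoglobin) was at 53.5, 51.9 and 54.2 CPM and PKP4, a plakophilin, at 78.2, 73.8 and 71.7 CPM. Of 15 such genes 12 were tested and 0 were apart by 1.5-fold in each comparison, with median log2 ratios of -0.05, 0.11 and 0.05. Over all genes tested the shares apart were 1.26%, 3.39% and 3.99%, so 0 is near the background. The medians of all genes tested were 0.00, 0.01 and -0.01. Among 10 actin and tubulin genes, all tested, 0 were apart, again near the background, and the medians were 0.04, 0.07 and 0.13. ACTG1, the highest of them per length, stood at 2424, 2460.2 and 2571 CPM.

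Markers of the cell types that the filaments stand for were present in part. Of 14 epithelial markers 7 were tested, and all 14 summed to 61.8, 64.4 and 67.6 CPM. Most of that sum came from ESRP2, at 22.8, 26.8 and 29.5 CPM, and OCLN, at 20.8, 20.3 and 19.4 CPM. ESRP2 was lowest in the control and OCLN highest there. CDH1 (E-cadherin), at 6.01, 5.62 and 6.19 CPM, and EPCAM, at 2.60, 2.35 and 2.69 CPM, were lowest in the ADAR2 library. Of 15 mesenchymal markers 8 were tested, and all 15 summed to 267, 242 and 241 CPM. CDH2 (N-cadherin) was at 66.8, 59.3 and 61.9 CPM, and THY1 is listed at 0 in each library. The sum was highest in the control, as VIM was. So were the tested markers CDH2, FN1, ZEB1, ZEB2 and SNAI2. The other tested markers were highest in the ADAR2+SRSF9 library, where VIM was lowest. These were COL1A1 (33.1, 32.6 and 38.3 CPM), TWIST1 (18.3, 17.5 and 18.6 CPM) and SPARC (2.19, 2.31 and 2.37 CPM). The part of the mesenchymal markers in the VIM values was not tested. Of the 20 neuronal or adrenal medullary markers, which have 21 rows, 9 rows were tested, and all 21 summed to 341, 342 and 339 CPM. UCHL1 was at 141, 131 and 144 CPM, ENO2 at 83.6, 90.3 and 78.6 CPM and MAPT (tau) at 37.0, 37.8 and 38.4 CPM. GAP43, a growth cone protein, was the 1 tested marker of these 3 lists that was apart by 1.5-fold. It was apart in the first and second comparisons, where 1.26% and 3.39% of all genes tested were. It stood at 1.68, 0.954 and 1.60 CPM, lower in the ADAR2 library than in the other two, with log2 ratios of -0.81 and then 0.74. Among the markers below the filter were MAP2, a dendritic microtubule protein, at 1.16, 0.313 and 0.511 CPM, SNAP25, a protein of synaptic vesicle fusion, at 1.15, 0.506 and 0.229 CPM, and ELAVL3, a neuronal RNA-binding protein, at 0.570, 0.112 and 0.198 CPM. These 3, named after their values were seen, were highest in the control. Other markers of the neuronal list differed in order. SYP was highest in the ADAR2 library, at 16.2, 20.2 and 17.6 CPM. DBH had 9, 15 and 28 reads, and STMN2 stood at 0.958, 0.961 and 0.960 CPM. The part of these markers in the neuronal filament values was not tested. TH, the rate-limiting enzyme of catecholamine synthesis, had 5, 1 and 1 reads. Of the embryonic kidney genes, PAX2 was at 3.65, 4.05 and 3.33 CPM and GATA3 at 8.83, 9.56 and 9.05 CPM. PAX8 had 5, 1 and 9 reads. In bulk RNA, fewer cells that express a gene and less RNA per cell cannot be told apart.

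KRT19 spanned 1.66-fold from lowest to highest library, a spread that the filter favoured, since KRT19 met it only through its highest library. The genes whose pattern over the 3 libraries lay nearest that of KRT19 were sought among 10362 genes with a mean CPM of 10 or more, by Euclidean distance between log2 CPM profiles centred on their mean. CDKN1A, which encodes the cell cycle inhibitor p21, was nearest at a distance of 0.02, with 43.9, 58.4 and 36.1 CPM. RP11-12M9.3 and the row ATF4P3 followed, both at 0.13. In all 55 genes lay within 0.25. With 3 libraries such a likeness rests on 3 points, and KRT19 itself has counting error larger than these distances.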

How the data were processed

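The 3 libraries were made from 2 ug of total RNA of HEK293T cells with a strand-marking NEBNext kit, per the labels' protocols. The submitters' processing notes name hg19, STAR, Picard, GATK and SAMtools, and the counting program is not given in the sources used here. What the authors deposited are raw read counts per gene. Columns were matched by the library codes in the labels.

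Scaling was by TMM in edgeR 4.0.16 (R 4.3.3). Python 3.11.15, numpy 2.4.6, pandas 2.3.3, scipy 1.17.1 and matplotlib 3.10.9 were used for the rest. A prior count of 0.5, in proportion to library size, was added for log2 ratios. The 95% intervals are Clopper-Pearson intervals of 1 library's share of a gene's reads in a pair. With 1 library per group no test between groups is possible, and ratios compare libraries. Lengths and GC content came from GENCODE 29 on GRCh38, not the authors' build, so no coordinates are given. Identifiers matched for 51802 rows and symbols for a further 818, NEFL among them. The GC trend was the median log2 ratio in 50 bins of 9655 protein-coding genes that averaged 10 CPM or more, as a running mean of 5 bins.

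All 10 genes are reported. From the other lists, genes apart by 1.5-fold, the highest per length and those that define a cell type are named. Genes and lists were chosen with earlier results of these data known. On simulated Poisson counts for 16072 genes, 200 of 200 genes set 2.5-fold apart were recovered in ADAR2 against control, with 3 false calls. That run held counting error only and a difference larger than the 1.5-fold rule. It therefore cannot speak to smaller differences or to the spread between replicate libraries. Alternatives were DESeq2 1.42.0 size factors and other scalings, filters, prior counts, fold thresholds, lengths, removal of the GC trend and addition of pseudogene reads. A few items are not reported here.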

Additional observations from a re-analysis of the deposited data

How the results depend on the processing

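No paired analysis was possible because each group has 1 library. For the same reason no library could be left out. The number of filament genes apart by 1.5-fold was 0 in ADAR2 against control, and at a lower threshold, 0.32 on the log2 scale, it was 1, KRT19, which was higher, against 8.36% of all genes tested. In ADAR2+SRSF9 against ADAR2 the number was 1, and it was 0 with a mean CPM of 10 or more, where KRT19 is not tested, and 0 at a threshold of 2-fold. The other alternatives left these counts at the same value, among them 4 other scalings (by DESeq2, by totals, by upper quartile, and by TMM without mitochondrial, overexpressed and globin genes), no filter, a prior count of 5 and removal of the GC trend. In ADAR2+SRSF9 against control the number was 0 under all 10 alternatives.

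The log2 ratio of KRT19 in ADAR2+SRSF9 against ADAR2 ran from -0.79 to -0.71 over the alternatives for scaling, prior count and GC trend. It was -0.65 with the pseudogene rows of KRT19 included, an alternative chosen after seeing the data. A change of filter cannot move this ratio. KRT19 met the filter only through the ADAR2 library, which favours a lower ratio here, so the narrow range is not read as support. Removal of the GC trend moved 10 of 27 log2 ratios beyond their counting interval, and plain library totals moved 5 of 27. NEFL, whose ratios lie near 0, took either sign in each comparison. With the GC trend removed KRT18 turned from 0.06 to -0.04 in ADAR2 against control, and NES from 0.07 to -0.11 in ADAR2+SRSF9 against control. KRT8 in ADAR2+SRSF9 against ADAR2 turned from 0.02 to -0.02 with plain library totals. That scaling shifts all genes of a comparison together, and the median of all genes tested went from 0.01 to -0.03. The cause of the GC trend was not tested. Depth limits KRT19 and NEFH most, with 66 to 177 reads in a library.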
